A study of Homo sapiens with 6 samples.

Results

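The MYC, MAX and MXD network was described through 7 genes, MYC, MAX, MXD1, MXD3, MXD4, MNT and MLX, which were the rows carrying these symbols among 26389 genes of the read count table. All 7 also had FPKM values, and all 7 were among the 14197 genes with enough reads to be tested. The cells were HepG2, a human hepatocellular carcinoma line, and each group had 3 RNA-seq libraries. In the shTCTP group the cells had received a short hairpin RNA plasmid against TCTP, the translationally controlled tumour protein encoded by TPT1, and in the shCtrl group a control hairpin plasmid. Both groups were grown in the same serum-containing medium and were transfected with a lipid reagent. The labels give a harvest at 48 h for quantitative PCR only, and nothing in them tells whether replicate libraries stem from separate cultures. The p-values therefore measure only the spread among these 6 libraries, and part of that spread may be technical.

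Proteins of this network are basic helix-loop-helix zipper transcription factors that bind DNA as dimers at the E-box, a short palindromic element. MYC binds with its partner MAX and activates genes of ribosome assembly, metabolism and cell division. MXD proteins and MNT compete for MAX and recruit SIN3 and histone deacetylases, which repress the same kind of gene. MLX is a second, MAX-like partner that joins MXD1, MXD4 and MNT to the network, and that pairs with MondoA and, in liver, with ChREBP to switch on genes of carbohydrate use.

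The libraries held 25427614 to 30486409 reads in the shTCTP group and 29969485 to 30348435 reads in the shCtrl group. Library shTCTP 3 was the shallowest and stood apart, its mean Pearson r across genes with the remaining libraries being 0.977, where every other library had 0.986 to 0.987, and it had the highest TMM scaling factor, 1.17. The targeted transcript TPT1 had 2032, 1807 and 1559 CPM (TMM-scaled reads relative to library size) in shTCTP libraries and 2575, 2249 and 2290 CPM in shCtrl libraries. The groups did not overlap for TPT1, and its estimated level in shTCTP cells was 75.9% of that in shCtrl cells. As a log2 fold change of shTCTP over shCtrl (log2FC) this was -0.40 (SE 0.17), which did not pass over all genes (edgeR adjusted p = 0.396). All 11 hepatocyte markers had reads. Computed without TMM scaling, their summed level was 17310 to 20111 CPM in shTCTP libraries and 20870 to 23142 CPM in shCtrl libraries. In edgeR's test 0 of these 11 were called at an adjusted p under 0.05, with 10 negative and 1 positive log2FC. Of all tested genes 1.26% were called higher and 0.148% lower. Of 8 fibroblast markers 4 had reads, summing to 11.5 to 18.01 CPM in shTCTP and 11.2 to 13.6 CPM in shCtrl libraries. Of 8 blood markers 7 had reads, summing to 11.6 to 16.1 CPM in shTCTP and 12.5 to 13.9 CPM in shCtrl libraries, and 1 of them, ITGAM, rose (log2FC 1.54, edgeR adjusted p = 0.0375). Of 6 endothelial markers 4 had reads, summing to 0.0787 to 0.525 CPM in shTCTP and 0.330 to 0.630 CPM in shCtrl libraries. The defining markers PTPRC, COL1A2, DCN, THY1, POSTN, KDR and TEK matched no row and were not analysed here. Whether the lower hepatocyte marker sum in shTCTP cells had a part in the results that follow was not tested, and in bulk RNA fewer cells of a kind cannot be told apart from less RNA per cell.

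MXD1, a repressor of the network, rose 1.72-fold in shTCTP cells and was the 1 member past the threshold. MYC itself, its partner MAX, MXD4, MNT and MLX had overlapping values in shTCTP and shCtrl libraries. MXD3 was lower in every shTCTP library than in any shCtrl library, without passing the test. Of the 7 members 1 was higher and 0 were lower at an adjusted p under 0.05 in the edgeR quasi-likelihood test, against 1.26% of all tested genes called higher and 0.148% called lower, or 1.41% in either direction. The groups did not overlap for 2 of the 7 members, against 17.1% of all tested genes, 1 lying above (against 9.83%) and 1 below (against 7.3%), and 2 of 7 had an unadjusted p under 0.05, against 11.1%. The shares by non-overlap and by unadjusted p rest on 2 genes each. The median log2FC over the 7 members was 0.09, and over all tested genes it was -0.0023.

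MXD1 (ENSG00000059728.10, GRCh38 chromosome 2, 69897688 to 69942945, plus strand) encodes a MAX-binding repressor that is known for appearing as cells leave the cycle and differentiate. Its RefSeq promoter is shown because it is the member that rose. The window lies inside the gene span above, whose GENCODE 29 start is further upstream. Shown are the 250 bases before the RefSeq transcription start (GRCh38.p14, chr2:69914859-69915108, plus strand), with CCAAT boxes, the sites of nuclear factor Y, in capitals.
MXD1: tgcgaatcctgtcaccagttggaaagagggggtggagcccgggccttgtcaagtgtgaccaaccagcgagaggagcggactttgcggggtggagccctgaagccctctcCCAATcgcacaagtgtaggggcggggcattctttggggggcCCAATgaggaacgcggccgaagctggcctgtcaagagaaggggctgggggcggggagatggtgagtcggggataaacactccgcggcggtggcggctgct

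MXD1 gave 319, 262 and 311 reads in the shTCTP libraries, against 188, 168 and 154 reads in the shCtrl libraries. Scaled to library size this was 10.9, 8.81 and 10.5 CPM in shTCTP and 6.17, 5.83 and 5.53 CPM in shCtrl. The lowest shTCTP library lay above the highest shCtrl library, and the spread within the shCtrl group was the narrower one. The means were 10.1 ± 1.12 CPM in shTCTP and 5.84 ± 0.319 CPM in shCtrl cells (SD, n = 3 each). The estimated rise was 1.72-fold, a log2FC of 0.79 (SE 0.17, 95% confidence interval 0.42 to 1.15, edgeR adjusted p = 0.0310), past the threshold of 0.05. The call is close to the threshold: without shTCTP library 1, 2 or 3 the edgeR adjusted p was 0.105, 0.0439 and 0.00767, and without shCtrl library 1, 2 or 3 it was 0.0970, 0.169 and 0.164. With 1 library left out in turn the log2FC stayed between 0.72 and 0.86. On the deposited FPKM values MXD1 did not pass. Limma on log2(FPKM + 1) gave a difference of 0.50 (adjusted p = 0.128), and on log2(FPKM + 0.1) one of 0.82 (adjusted p = 0.113). Exons of MXD1 and of SNRNP27, a neighbour on the same strand, share 237 bases (3.73% of MXD1 exon bases in GENCODE 29), and SNRNP27 itself had a log2FC of 0.16 (SE 0.14, edgeR adjusted p = 0.735).

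**Figure D1:**
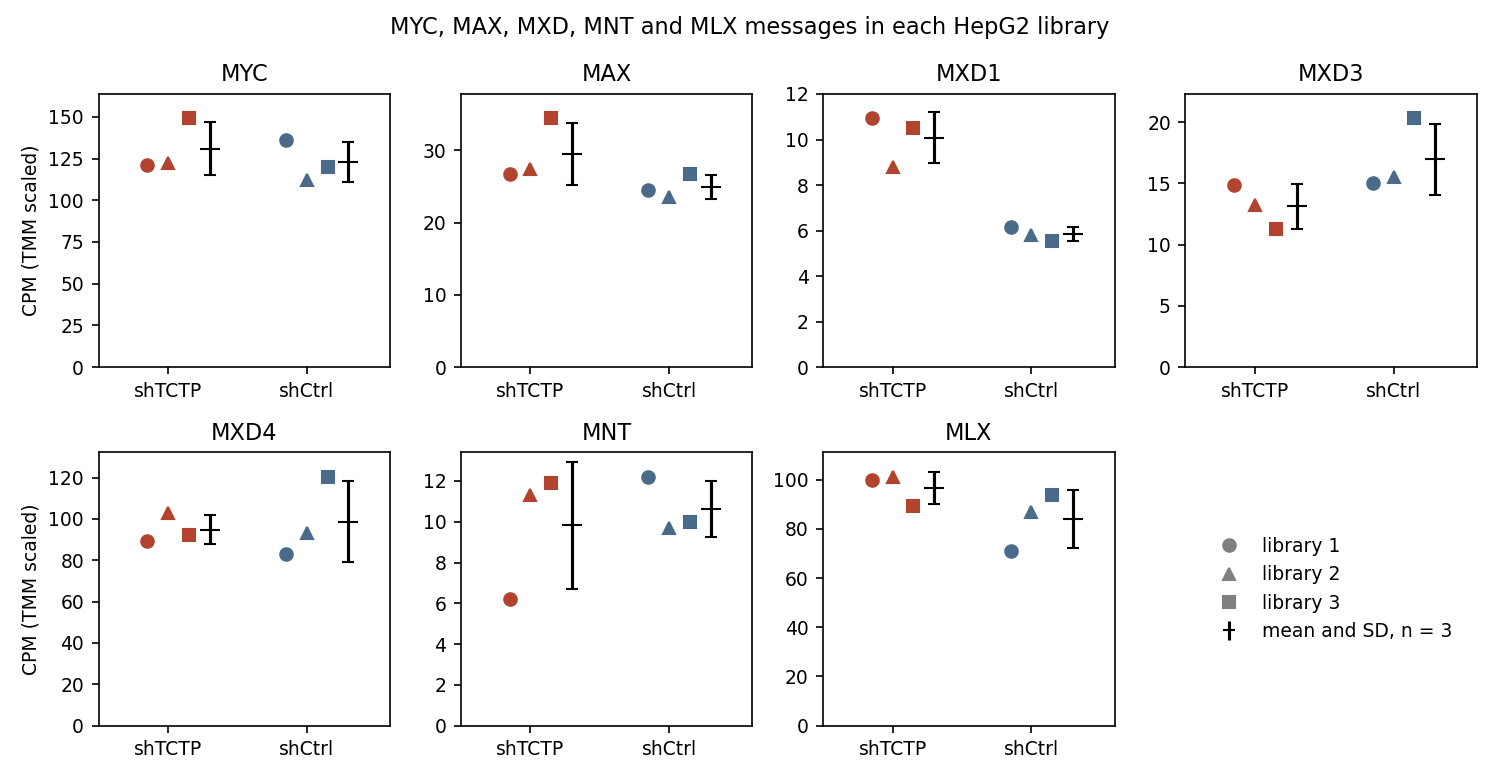
TMM-scaled CPM (linear axes from 0) of each of the 7 members, with shTCTP libraries left and shCtrl libraries right; symbols mark library 1, 2 and 3 of a group, and black bars the mean and SD. All shTCTP values of MXD1 (8.81 to 10.9 CPM) lie above the shCtrl values (5.53 to 6.17 CPM), and the 5 members other than MXD1 and MXD3 overlap between groups.

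MYC (ENSG00000136997.14, chromosome 8, 127735434 to 127741434, plus strand) is the oncogenic activator of the network. It had 121, 122 and 149 CPM in shTCTP libraries, against 136, 112 and 119.9 CPM in shCtrl libraries. The ranges overlapped, and the highest value came from shTCTP library 3, the one that stood apart. MYC averaged 131 ± 15.8 CPM in shTCTP and 123 ± 12.0 CPM in shCtrl cells (SD, n = 3 each), with a log2FC of 0.09 (SE 0.14, edgeR adjusted p = 0.860). The 95% confidence interval of that log2FC ran from -0.19 to 0.38. Without shTCTP library 3 the estimate was -0.0031, so its sign rested on that library. No gene overlapping MYC was annotated in GENCODE 29, and its counts had 3240 reads or more in every library.

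MAX (ENSG00000125952.18, chromosome 14, 65006174 to 65102695, minus strand) is the shared partner without which MYC and the MXD proteins bind E-boxes poorly. It had 26.7, 27.4 and 34.4 CPM in shTCTP libraries and 24.5, 23.6 and 26.8 CPM in shCtrl libraries. The groups overlapped narrowly, and shTCTP library 3 was again the highest. The log2FC was 0.24 (SE 0.14, 95% confidence interval -0.06 to 0.55, edgeR adjusted p = 0.573), and 0.12 without shTCTP library 3. On the deposited FPKM scale the values were 5.98, 6.37 and 9.38 FPKM in shTCTP and 5.82, 5.28 and 5.76 FPKM in shCtrl libraries, where the groups lay just apart. That scale carries no TMM scaling. There limma on log2(FPKM + 1) gave MAX a difference of 0.29 (adjusted p = 0.621), and the median over all genes was 0.06.

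The other 3 repressors did not pass the test. MXD3 (ENSG00000213347.10, chromosome 5, 177301461 to 177312757, minus strand), a MAX-binding repressor known from dividing cells, had 14.9, 13.3 and 11.2 CPM in shTCTP libraries and 15.1, 15.5 and 20.3 CPM in shCtrl libraries. The gap between the groups was small, the highest shTCTP library being close to the lowest shCtrl library. The means were 13.1 ± 1.81 CPM in shTCTP and 17.0 ± 2.92 CPM in shCtrl cells (SD, n = 3 each), with a log2FC of -0.37 (SE 0.17, unadjusted p = 0.0431, adjusted p = 0.426 by edgeR's quasi-likelihood test). Without shCtrl library 3, the highest of the 6, the log2FC was -0.22 (edgeR unadjusted p = 0.255). MXD3 is an uncertain row, since 1158 of its annotated exon bases (22.5%) are also exon of PRELID1 on the opposite strand and 926 (17.97%) of RAB24 on its own strand, and the use of strand in counting is not given in the sources used here. PRELID1 gave 122206 reads over the 6 libraries, against 2633 for MXD3. PRELID1 had a log2FC of 0.07 (edgeR adjusted p = 0.935) and RAB24 one of -0.20 (edgeR adjusted p = 0.713).

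MXD4 (ENSG00000123933.14, chromosome 4, 2247432 to 2262294, minus strand), a repressor of the same family, had 89.3, 103 and 92.2 CPM in shTCTP libraries, against 82.9, 93.0 and 120.3 CPM in shCtrl libraries. All shTCTP values lay within the shCtrl range, and the log2FC was -0.06 (SE 0.15, 95% confidence interval -0.37 to 0.25, edgeR adjusted p = 0.930). Without shCtrl library 3, the highest of the 6, the estimate was 0.10.

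MNT (ENSG00000070444.14, chromosome 17, 2384060 to 2401118, minus strand) encodes the broadly expressed MAX-binding repressor that opposes MYC. It had 6.23, 11.3 and 11.9 CPM in shTCTP libraries, against 12.2, 9.71 and 9.98 CPM in shCtrl libraries. The low value came from shTCTP library 1, with 182 reads where the other 5 libraries had 278 to 372. MNT was the most variable member, with a within-group SD of 0.39 on the log2 scale, above that of 82.9% of tested genes. For MXD1 this SD was 0.13 and its percentile 16.7. The log2FC of MNT was -0.11 (SE 0.21, edgeR adjusted p = 0.896), and 0.13 without shTCTP library 1. Exons of the antisense gene AC006435.1 share 1065 bases (12.2%) with those of MNT, and its own reads were not analysed here.

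MLX (ENSG00000108788.11, chromosome 17, 42567068 to 42573239, plus strand), the MAX-like partner, had 99.7, 101 and 89.3 CPM in shTCTP libraries and 71.0, 87.0 and 93.7 CPM in shCtrl libraries. shCtrl library 1 was low and the ranges overlapped, giving a log2FC of 0.21 (SE 0.14, 95% confidence interval -0.08 to 0.49, edgeR adjusted p = 0.622). It was 0.10 without shCtrl library 1. On the deposited FPKM scale, which carries no TMM scaling, MLX stood at 35.4, 37.2 and 38.5 FPKM in shTCTP and 26.7, 30.8 and 31.9 FPKM in shCtrl libraries. There the groups did not overlap, and limma on log2(FPKM + 1) gave a difference of 0.31 (adjusted p = 0.392), where the median over all genes was 0.06. Exons of MLX share 770 bases (18.1%) with PSMC3IP on the opposite strand, which had 1738 reads over the 6 libraries against 15846 for MLX.

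**Figure D2:**
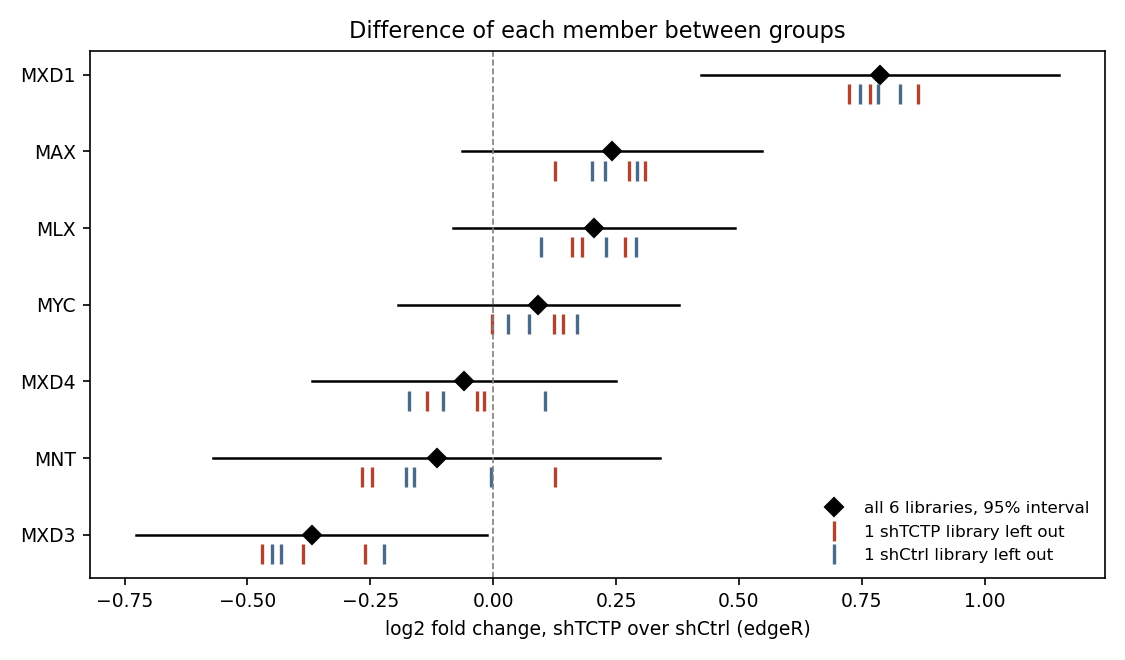
Log2 fold change, shTCTP over shCtrl, of each member with its 95% confidence interval (diamonds and lines), and the estimates with 1 library left out (ticks, red for a shTCTP and blue for a shCtrl library). The intervals of MXD1 (0.42 to 1.15) and, narrowly, MXD3 (-0.73 to -0.01) leave out 0, and the left-out estimates of MYC, MXD4 and MNT fall on both sides of 0.

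Levels per length were compared with the deposited FPKM values. In both groups the order of mean level was MYC, MLX, MXD4, MAX, MXD3, MNT and MXD1. MYC stood at 43.8 ± 10.2 FPKM in shTCTP and 37.9 ± 5.44 FPKM in shCtrl cells (SD, n = 3 each), at or above the 89.1th percentile of tested genes in both. MXD4 was the most abundant of the 4 repressors in every library, at 23.3 ± 2.68 FPKM in shTCTP and 22.4 ± 3.31 FPKM in shCtrl cells, while MAX stood at 7.24 ± 1.86 FPKM in shTCTP and 5.62 ± 0.296 FPKM in shCtrl cells (SD, n = 3 each). MXD1 was the lowest in mean level, at 1.79 ± 0.30 FPKM in shTCTP and 0.963 ± 0.101 FPKM in shCtrl cells (SD, n = 3 each). In shTCTP cells the neighbours in this order that overlapped were MYC with MLX and MNT with MXD1. In shCtrl cells the overlapping neighbours were MAX with MXD3, and MXD1 (0.870 to 1.07 FPKM) lay clear of MNT (1.76 to 2.38 FPKM).

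**Figure D3:**
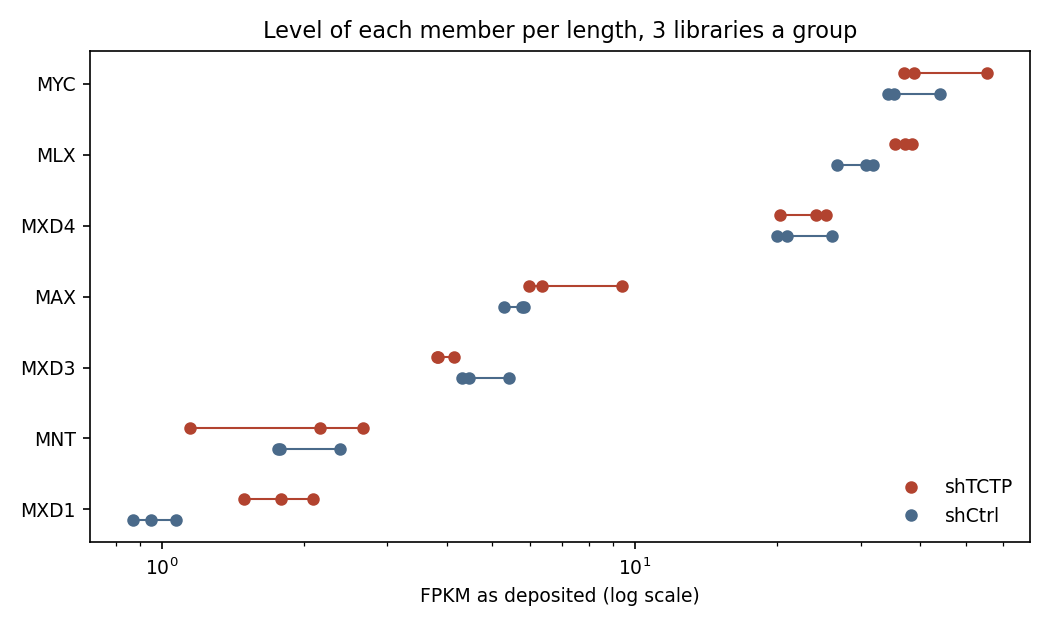
FPKM of each member in the 3 libraries of a group (log axis; shTCTP above shCtrl in each row, lines span the range). MYC, MLX and MXD4 lie at 19.9 FPKM or more in every library, and MXD1 and MNT at 2.66 FPKM or less.

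The rise of MXD1 left it a small part of the messages of the 4 repressors among the members. MXD1 made up 6.55%, 4.71% and 6.16% of the summed FPKM of MXD1, MXD3, MXD4 and MNT in shTCTP libraries, against 3.84%, 3.39% and 2.55% in shCtrl libraries. MXD4 made up 74.1%, 76.3% and 74.8% of that sum in shTCTP libraries and 71.6%, 74.9% and 76.4% in shCtrl libraries. Levels of MYC were 1.36, 1.23 and 1.63 times the repressor sum in shTCTP libraries and 1.59, 1.22 and 1.03 times in shCtrl libraries, with overlapping ranges. The ratio of MYC to MAX was 6.20, 6.09 and 5.91 in shTCTP libraries and 7.59, 6.50 and 6.11 in shCtrl libraries, also overlapping. These sums and ratios describe messages, not proteins, and leave out the repressors MXI1 and MGA, which are not members. They were not tested.

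The canonical E-box, CACGTG, stood in the 250 bases before the RefSeq start (GRCh38.p14) of 3 members, and these sites are shown because this is the element the network itself binds. Of the 7 members 6 had a promoter sequence in the RefSeq table. MXD4, MNT and MLX held the element once each, while the windows of MXD1, MXD3 and MAX did not. Of all 35116 promoter windows of this length 6.34% held it, and being a palindrome it reads the same on both strands. The windows below are 60 bases long, written 5′ to 3′ on the strand of the gene, with the E-box in capitals (MXD4 chr4:2262300-2262359, minus strand; MNT chr17:2401221-2401280, minus strand; MLX chr17:42567023-42567082, plus strand).
MXD4: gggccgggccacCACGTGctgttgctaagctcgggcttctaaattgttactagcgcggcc
MNT: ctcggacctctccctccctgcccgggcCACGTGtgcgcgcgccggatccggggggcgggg
MLX: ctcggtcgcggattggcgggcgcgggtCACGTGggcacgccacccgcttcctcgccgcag

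The element begins 238 bases before the start in MXD4, 193 in MNT and 50 in MLX. The log2FC values of these 3 genes were -0.06, -0.11 and 0.21, and none passed. In the MXD1 window shown above CCAAT, read on both strands, occurred 2 times, and 32% of all windows held it. GGGCGG, the GC box, also occurred there 2 times on either strand, and 42.6% of all windows held it. Neither TGANTCA, the AP-1 element, nor TGACGTCA, the cyclic AMP element, was found in the MXD1 window, and these stood in 6.57% and 1.65% of all windows. TGANTCA was found once in the MXD3 window. The matches describe letters in these windows only.

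Of 3 tested noncoding RNAs of the MYC locus on chromosome 8, 2 were called higher in shTCTP cells, against 1.26% of all tested genes. The values of MYC overlapped between groups. PVT1 (ENSG00000249859.7, chromosome 8, 127794533 to 128101253, plus strand), a long noncoding RNA gene downstream of MYC that is often co-amplified with it, had 18.1, 19.3 and 18.4 CPM in shTCTP libraries, against 11.0, 11.4 and 12.6 CPM in shCtrl libraries. CCAT1, a long noncoding RNA gene of the same locus known from colon cancer, had 17.4, 17.96 and 17.0 CPM in shTCTP libraries, against 12.9, 10.6 and 8.94 CPM in shCtrl libraries. In both genes every shTCTP library lay above every shCtrl library, and the shTCTP libraries were close to each other. PVT1 rose by a log2FC of 0.68 (SE 0.15, edgeR adjusted p = 0.0292) and CCAT1 by one of 0.69 (SE 0.16, edgeR adjusted p = 0.0441). PVT1 passed in 10 of 18 alternative analyses, and CCAT1 in 10 of the 17 that gave it a value.

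The list of RNAs of the locus was chosen with earlier results of these data known. Among all tested genes 1.26% were called higher and 0.148% lower. Of 7 noncoding RNAs listed for the locus 5 matched a row and 3 were tested, of which 2 rose and 0 fell. The third, CASC19, had a log2FC of 0.53 (SE 0.28) and did not pass. CASC11 and PCAT1 had 6 and 1 reads over the 6 libraries. PVT1 passed only without shTCTP library 3 among the fits with 1 library left out, and had an edgeR adjusted p of up to 0.186 in the others. CCAT1 passed without shCtrl library 1 or shTCTP library 3 and had an edgeR adjusted p of up to 0.280 in the others. With limma on log2(FPKM + 1) neither passed, at adjusted p = 0.0755 for PVT1 and 0.0780 for CCAT1, and with log2(FPKM + 0.1) at 0.0631 and 0.0604. The difference between the changes of PVT1 or CCAT1 and of MYC was not tested.

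**Figure D4:**
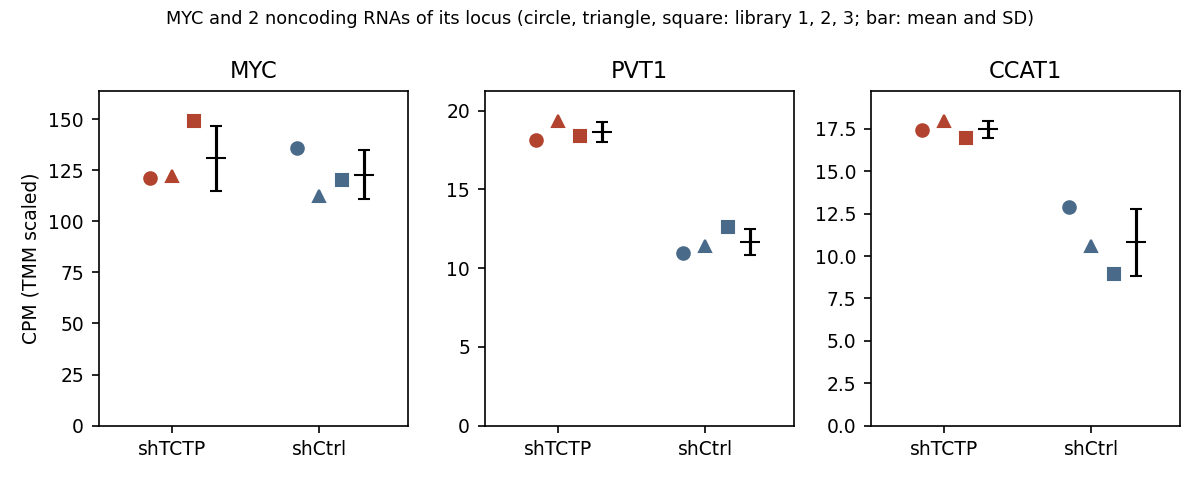
TMM-scaled CPM of MYC, PVT1 and CCAT1 by library (linear axes from 0; shTCTP left, shCtrl right; bars are mean and SD, n = 3). PVT1 and CCAT1 separate the groups (lowest shTCTP values 18.1 and 17.0 CPM, highest shCtrl values 12.6 and 12.9 CPM), and MYC does not.

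Other relatives of the 7 members did not pass the test. Of 6 listed, 5 were tested by edgeR, with a median log2FC of -0.13 and 1 unadjusted p under 0.05 (against 11.1% of all tested genes), and DESeq2 also called 0. That median was 0.02, -0.31 and -0.07 without shTCTP library 1, 2 and 3, and -0.02 and -0.27 without shCtrl library 1 and 2, so neither its sign nor its size held. MXI1, a further MXD family repressor, had 4.35, 4.81 and 4.46 CPM in shTCTP libraries, against 7.12, 6.38 and 6.17 CPM in shCtrl libraries. The groups were apart, at a log2FC of -0.53 (SE 0.18, edgeR adjusted p = 0.229), the opposite sign to MXD1. MLXIP, which encodes MondoA, stood at 0.17 and MLXIPL, which encodes ChREBP, at -0.13, with edgeR adjusted p = 0.768 and 0.847. MGA, a large MAX-binding repressor, stood at -0.0093. MLXIPL and MGA were named after their values were seen.

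Genes that the network is known to act on were described by counts and medians beside the median of -0.0023 over all tested genes. Of all tested genes 1.26% were called higher and 0.148% lower by edgeR. The lists were chosen with earlier results of these data known, so their counts are descriptions. Of 38 nucleolar and ribosome assembly genes known as MYC-induced 1 rose and 0 fell, with a median log2FC of 0.08 and 28 positive values. The one that rose was RCL1, a protein of 18S ribosomal RNA maturation, which had 71.2, 64.6 and 57.9 CPM in shTCTP libraries and 37.6, 40.3 and 39.0 CPM in shCtrl libraries. No shTCTP library came near the shCtrl range, and the log2FC was 0.73 (SE 0.13, edgeR adjusted p = 0.00701). Without shTCTP library 2 its edgeR adjusted p was 0.0508. RRP12, a ribosome export factor, stood at 0.32 without passing (edgeR adjusted p = 0.315), a value named after it was seen.

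Of 40 MYC-induced genes of metabolism, translation and protein import 0 passed in edgeR's test. In that test 4 of them had an unadjusted p under 0.05, against 11.1% of all tested genes. The median was 0.00039 with 20 positive and 20 negative values (medians of -0.05 to 0.03 with 1 library left out). PPRC1, a coactivator of mitochondrial genes, stood at 0.37 and HSPD1, the mitochondrial chaperonin, at -0.38 (edgeR adjusted p = 0.267 and 0.405). Of 20 MYC-induced cell cycle genes 0 passed in edgeR's test, and 4 had an unadjusted p under 0.05, against the same 11.1%. Their median was -0.07 with 14 negative values. The cell cycle median was -0.14 without shTCTP library 1 and -0.12 without shCtrl library 1, and it was 0.04 with limma on log2(FPKM + 1) or log2(FPKM + 0.1), where the median of all genes was 0.06 and 0.09. UNG, a uracil DNA glycosylase, stood at -0.32 and E2F2 at -0.38 (edgeR adjusted p = 0.337 and 0.400). DESeq2 and limma voom also called 0 genes of these metabolism and cell cycle lists.

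Of 18 tested genes known as repressed by MYC 5 rose and 1 fell, with a median of 0.18. Of all tested genes 1.26% were called higher and 0.148% lower. The 5 were GADD45A, KLF6, GADD45B, SESN2 and CDKN1A, all known from stress responses or growth arrest, and the one that fell was NDRG1, a differentiation gene also induced by hypoxia. KLF6, a zinc finger factor, had 91.7, 93.0 and 116 CPM in shTCTP libraries, against 51.7, 46.0 and 47.8 CPM in shCtrl libraries. GADD45B had 34.9, 36.6 and 27.8 CPM in shTCTP libraries, against 13.2, 19.3 and 15.6 CPM in shCtrl libraries. Both were clear of overlap, with log2FC values of 1.05 (SE 0.14, edgeR adjusted p = 0.000362) for KLF6 and 1.05 (SE 0.17, edgeR adjusted p = 0.00231) for GADD45B. With 1 library left out 3 to 7 genes of this list passed, 3 without shCtrl library 1 or 2 or shTCTP library 2. GADD45A, SESN2 and CDKN1A are also known targets of p53. Since this list was chosen with earlier results of these data known, its counts are no independent support.

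Of 18 tested genes known as induced by MLX with MondoA or ChREBP 1 rose and 2 fell, with a median of -0.17. Among all tested genes 1.26% were called higher and 0.148% lower. KLF10, a zinc finger repressor, had 21.96, 23.8 and 25.5 CPM in shTCTP libraries, against 14.7, 11.2 and 8.43 CPM in shCtrl libraries. The values separated the groups, at a log2FC of 1.05 (SE 0.18, edgeR adjusted p = 0.00536). The 2 that fell were G6PC, the glucose-releasing phosphatase of liver, and MTTP, a lipoprotein assembly factor. G6PC rested on 2 to 14 reads in shTCTP and 29 to 50 in shCtrl libraries. The log2FC was -2.14 for G6PC and -0.66 for MTTP (edgeR adjusted p = 0.0292 and 0.0434). MTTP passed in 10 of 18 alternative analyses, and G6PC in 14 of the 17 that gave it a value. KLF10 passed in all 18. TXNIP, a target often used to read MondoA and ChREBP activity, had 41.0, 39.8 and 44.1 CPM in shTCTP libraries and 49.8, 44.4 and 32.2 CPM in shCtrl libraries. Its ranges overlapped, with a log2FC of -0.02 (edgeR adjusted p = 0.982), and TXNIP was named after its values were seen. PKLR, the liver pyruvate kinase and a known ChREBP target, stood at -0.39 without passing, and was named likewise. Without shCtrl library 1 or 2 or shTCTP library 2, 1 gene of this list passed. Lipid and glucose genes of this list are also hepatocyte genes, and the hepatocyte marker sum was lower in shTCTP libraries (17310 to 20111 against 20870 to 23142 CPM); its part in these values was not tested.

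**Figure D5:**
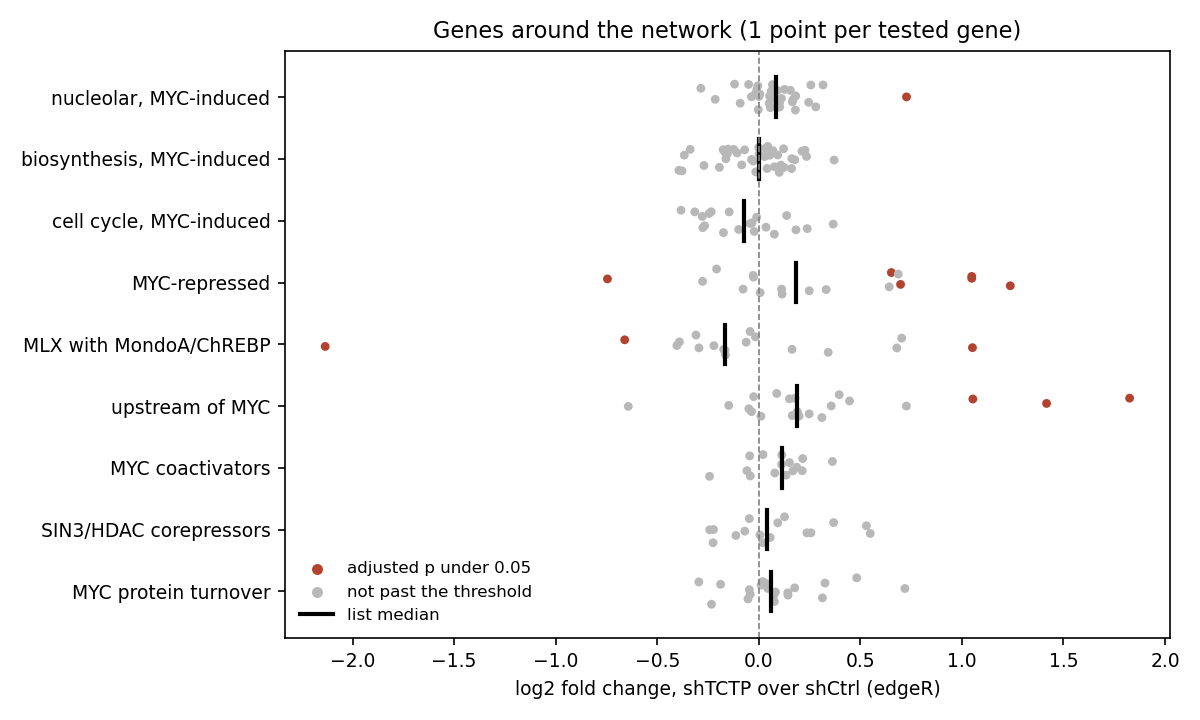
Log2 fold change, shTCTP over shCtrl, of every tested gene in 9 lists around the network (1 point per gene, red where the edgeR adjusted p was under 0.05, black bar at the list median). The medians lie between -0.17 and 0.19, and the called genes were 6 MYC-repressed genes, 3 genes upstream of MYC, 3 MLX targets and 1 nucleolar gene. Of all tested genes 1.41% were called.

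The genes known to switch on MYC were listed with earlier results of these data known, so their count is no independent support. Among all tested genes 1.26% were called higher and 0.148% lower. Of 21 genes known to switch on MYC 3 rose and 0 fell, with a median of 0.19. These were FOS, JUN and EGR1, immediate early transcription factors, at log2FC of 1.83 (SE 0.21), 1.05 (SE 0.12) and 1.42 (SE 0.20) and edgeR adjusted p of 9.94e-05, 0.000119 and 0.000673, and the same number passed with any 1 library left out. The lists of coactivators, corepressors, Polycomb subunits, turnover enzymes, MYC partners and other E-box factors gave no call in edgeR's test. Their counts at an unadjusted p under 0.05 in that test stand beside 11.1% of all tested genes. The 15 MYC coactivators had a median of 0.11, with ACTL6A at -0.24 and 0 genes at an unadjusted p under 0.05. The 16 subunits of SIN3 and deacetylase corepressors had a median of 0.04, with SIN3B at 0.37, ARID4B at 0.55 and 3 genes at an unadjusted p under 0.05. The 9 subunits of the MGA and MAX containing Polycomb complex had a median of 0.06, with RYBP at 0.55, YAF2 at 0.47 and 2 genes at an unadjusted p under 0.05. The 20 enzymes of MYC turnover had a median of 0.06, with USP36, a nucleolar deubiquitinase that stabilises MYC, at 0.48 (SE 0.12, edgeR adjusted p = 0.0712), FBXO28 at 0.31 and 1 gene at an unadjusted p under 0.05. The 11 direct MYC partners had a median of -0.0022, with ZBTB17, which encodes MIZ1, at 0.35, MYCBP at -0.29 and 1 gene at an unadjusted p under 0.05. Of 12 other E-box factors 9 were tested, with a median of 0.07, TFE3 at 0.45 (SE 0.12, edgeR adjusted p = 0.0962), BHLHE40 at 0.47 and 2 genes at an unadjusted p under 0.05. DESeq2 called 0 coactivators, corepressors, Polycomb subunits and MYC partners, and 1 gene each of the turnover and other E-box lists. With 1 library left out the medians ranged from 0.04 to 0.13 for coactivators, 0.01 to 0.08 for corepressors, -0.0014 to 0.07 for Polycomb subunits, 0.03 to 0.19 for turnover, -0.0999 to 0.08 for MYC partners and 0.01 to 0.15 for E-box factors.

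Likeness of pattern was measured as the root mean square difference of log2 CPM over the 6 libraries, after each gene was centred on its own mean. Among the 21 pairs of members, MYC and MAX were the closest, at 0.12, and MXD1 and MXD3 the farthest apart, at 0.61. Of 12203 other genes with a mean of at least 1 CPM, those most like MXD1 were TNFRSF10D, a decoy receptor for the death ligand TRAIL, at 0.0946, and STX3, a membrane fusion protein, at 0.0990, where the median gene was at 0.445. The next were SCN9A at 0.101, DST at 0.104 and GPRC5A at 0.108. Since likeness was taken over the same 6 libraries, genes close to MXD1 carry its group difference by construction: of these 5, TNFRSF10D, STX3 and GPRC5A were past the threshold (log2FC 0.66, 0.59 and 0.79, edgeR adjusted p = 0.0135, 0.0491 and 0.0436) and SCN9A and DST were not (log2FC 0.66 and 0.61, edgeR adjusted p = 0.235 and 0.136). Genes most like MYC were UBE2E3, a ubiquitin-conjugating enzyme, at 0.0322 and TMEM245 at 0.0331, where the median gene was at 0.230. The closest gene to MAX was RP11-287D1.3 (0.0377), to MXD3 SNHG4 (0.0395), to MXD4 FIBP (0.0289), to MNT NPTXR (0.0579) and to MLX DDX56 (0.0279). These values carry no test, and all genes share the same 6 libraries.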

How the data were processed

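RNA-seq of 6 HepG2 libraries was used, 3 per group. The authors deposited a table of raw read counts and one of FPKM values, both by gene, and the submitters' processing notes name bcl2fastq, TopHat2, edgeR and GRCh38, without versions. The labels' protocols give poly(A) selection and directional paired-end libraries. The counting tool, its strand setting and the annotation are not given in the sources at hand. Deposited counts were tested for all genes with edgeR 4.0.16 in R 4.3.3 (filterByExpr, TMM, robust quasi-likelihood fit, group as the only term), with Benjamini-Hochberg adjustment over all of them and a threshold of 0.05. Standard errors came from the estimate and the F statistic. The procedure was also run on counts simulated from its own fitted dispersions, which is no check of that model on these libraries. Members were matched by symbol, and 284 of 295 list entries were matched, 1 by gene ID. Members and lists were chosen with earlier results of these data known. Named were all members, up to 6 genes past the threshold per list, or else the 2 with the smallest p, and the closest genes by pattern; 1 gene that this rule names is not reported here. Coordinates came from GENCODE 29 by gene ID without its version, and promoters from RefSeq. Alternatives were RLE and upper quartile scaling, other filters, a replicate block, DESeq2 1.42.0, limma 3.58.1 on voom values and on log2 FPKM with pseudocounts of 1 and 0.1, non-robust dispersion, a length correction, each library left out, and a GC correction added after seeing the data. Figures used matplotlib 3.10.9. No pair of libraries within a group was a duplicate (chi-square over degrees of freedom, 15.1 to 94.1).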

Additional observations from a re-analysis of the deposited data

How the results depend on the processing

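Under 18 alternatives MXD1 kept a positive log2 fold change (0.50 to 0.86) and passed in 11. The count of members called was 0 with the replicate block and with limma on log2(FPKM + 1) or log2(FPKM + 0.1), and 0 to 1 with 1 library left out. The count of all genes called, 200, was 317 with no filter on low counts, 314 with DESeq2 and 130 with the replicate block, with the cause not tested. With 1 library left out, where fewer libraries enter the fit, it was 79 to 343: 177, 89 and 343 without shTCTP library 1, 2 and 3, and 90, 79 and 101 without shCtrl library 1, 2 and 3. G6PC and CCAT1 gave no value in 1 alternative each. With the replicate block MXD1 had an edgeR adjusted p of 0.0959, PVT1 of 0.103 and CCAT1 of 0.0993. Deviations of same-numbered libraries from their group means correlated at -0.23, 0.0015 and -0.20, and no library correlated best with its own number. With 3 libraries a group such correlations cannot decide whether same-numbered libraries were handled together. The sign of MXD4 turned with limma on log2(FPKM + 1) and log2(FPKM + 0.1), to 0.058 and 0.060, where the median of all genes was 0.057 and 0.091, and to 0.10 without shCtrl library 3 (-0.17 to 0.10 with 1 library left out). The sign of MNT turned to 0.13 without shTCTP library 1 (-0.27 to 0.13) and that of MYC to -0.0031 without shTCTP library 3 (-0.0031 to 0.17), and the cause was not tested. MYC, MAX, MXD3, MXD4, MNT, MLX and TPT1 passed in none of the 18, and MAX, MXD3, MLX and TPT1 kept their sign in all of them. Depth limits MXD1 and MNT most, at 154 to 372 reads a library.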
